A study of Mus musculus with 4 samples.

Results

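The genes described here are 31 that write, erase or read N6-methyladenosine (m6A) on RNA or belong to the Prrc2 family, taken by symbol from gene count tables of 24421 genes. All 31 were present, and all 31 passed the filter on low counts that left 15012 genes for testing. Virma was listed under its older symbol 1110037F02Rik. The tables come from poly(A) RNA of mouse neural stem cells labelled as C57BL/6J, prepared from embryonic cerebral cortex at day 17 (E17) and kept for 1 day in medium with the mitogens bFGF and EGF. Libraries labelled cKO (n = 2) carried the genotype Prrc2b f/f; Nestin-Cre, in which Cre under Nes (Nestin) control, active in neural progenitors, acts on loxP-flanked Prrc2b alleles. Control libraries (n = 2) carried Prrc2b f/f without Cre, so both groups share the loxP-flanked alleles. The series' design text speaks of brain tissue where the sample labels say neural stem cells, and nothing in the labels says whether replicates came from separate embryos, so p-values reflect only how much these libraries vary, possibly for technical reasons.

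m6A is the most common internal modification of messenger RNA. A METTL3 and METTL14 core placed by a larger adaptor complex adds it, the demethylases FTO and ALKBH5 can remove it, and reader proteins that bind methylated RNA alter its splicing, translation or decay. In embryonic mouse cortex the core enzymes and YTHDF2 are known for their part in the timing of neurogenesis. PRRC2A has been described in mouse as an m6A reader that stabilizes Olig2 mRNA, and its paralog PRRC2B as one that stabilizes Sox2 mRNA. The comparison asks whether transcripts of this machinery differ between libraries labelled cKO and control libraries.

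Gene totals were 25936794 to 28263272 counts per library, and a level is given below as CPM, counts-per-million on library sizes scaled by the TMM method. Replicates lay close together, with a chi-square per gene of 2.2 for the pair labelled cKO and 1.96 for the control pair, against 20.4 to 21.2 for pairs from different groups. Uty, Kdm5d, Eif2s3y and Ddx3y, all Y-linked, had 0 counts in both libraries labelled cKO, against 180 to 667 counts in control libraries, while Xist stood at 2209 and 2118 CPM in libraries labelled cKO, against 1672 and 1615 CPM in control libraries. Control libraries thus held transcripts of both sexes, and embryo sex cannot be told apart from genotype or Cre in any comparison below. Of 8 neural stem cell markers 2 rose, 3 fell and 3 did not pass, and their summed level was 6020 and 6024 CPM in libraries labelled cKO, against 7044 and 6999 CPM in control libraries. The intermediate filament genes Nes and Vim and the glutamate transporter gene Slc1a3 had log2 fold changes of -0.22, -0.31 and -0.36, and the Notch target genes Hes1 and Hes5 of 0.15 and 0.89 (edgeR adjusted p = 1.64e-10, 1.52e-17, 1.60e-17, 0.0213 and 1.53e-15). The part of these differences in the results below was not tested. Among the markers that did not pass, the stem cell transcription factor gene Sox2 averaged 442.8 ± 0.752 CPM in libraries labelled cKO and 444.9 ± 19.0 CPM in control libraries (SD, n = 2 each). Neuronal markers were also present, with the tubulin gene Tubb3 at 485.3 ± 8.48 CPM in libraries labelled cKO and 407.1 ± 7.99 CPM in control libraries (SD, n = 2 each). The adult globin genes Hba-a1, Hba-a2, Hbb-bs and Hbb-bt had 0 counts throughout. In bulk RNA such as this, fewer cells of a type and less RNA per cell cannot be told apart.

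The m6A machinery was close to level between the groups, and 1 reader gene stood out. Igf2bp2, an RNA-binding protein gene of the IGF2BP family, fell by 29.7% in libraries labelled cKO. The writer-complex scaffold gene Zc3h13 fell by 15.3%, and the nuclear hnRNP gene Hnrnpc rose by 10.3%. In all, 3 of the 31 rose and 5 fell (edgeR quasi-likelihood test, adjusted p under 0.05 over 15012 genes), which is 25.8% of them, against 33.1% of all genes tested. By direction the background was 15.1% of genes higher and 18.1% lower in libraries labelled cKO. Upper quartile scaling gave 6 higher and 2 lower among the 31, and 2939 higher and 2288 lower among all genes in place of 2263 higher and 2711 lower. DESeq2 called 3 of the 31, namely Igf2bp2, Zc3h13 and Hnrnpc, against 2697 of all 15012 genes tested.

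The differences were also small in size. The median absolute log2 fold change was 0.055 over the 31 genes, 0.12 over all genes tested, and 0.091 over the 10692 genes at least as abundant as the scarcest of the 31. The last group has only a lower limit on abundance and was not otherwise matched to the 31 genes. Igf2bp2 was the only called gene of the 31 with a change of at least 1.2-fold, whereas 14.7% of all genes tested were both called and changed by that much. Groups did not overlap for 19 of the 31 genes (61.3%), close to the 64.8% of all genes tested. Replicates of the 31 genes differed by a median of 0.025 on the log2 scale in libraries labelled cKO and 0.042 in control libraries. The group means differed by more than both replicate differences for 15 genes. That count was not made over all genes tested, so it has no background here. For 21 of the 23 genes not called, the 95% interval of the ratio lay within 1.2-fold either way. The other 2 were Mettl5, with an interval from 1.02 to 1.36, and Mettl16, with an interval from 0.833 to 0.988.

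**Figure D1:**
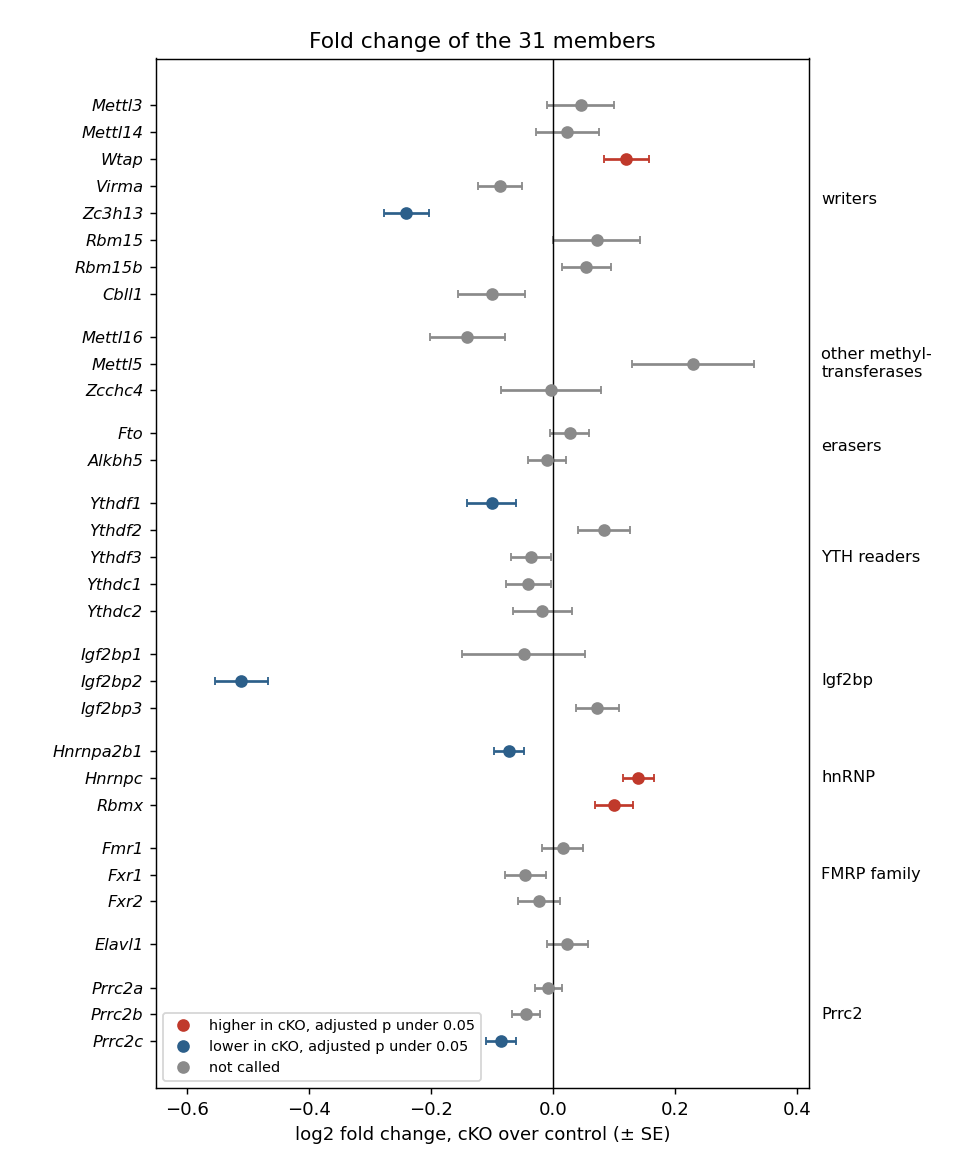
Log2 fold change of each of the 31 genes, libraries labelled cKO over control libraries, with its standard error, grouped by role. Igf2bp2 lies farthest from 0 at -0.51, Zc3h13 follows at -0.24 among the called genes, and most others lie within 0.1 of 0.

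**Figure D2:**
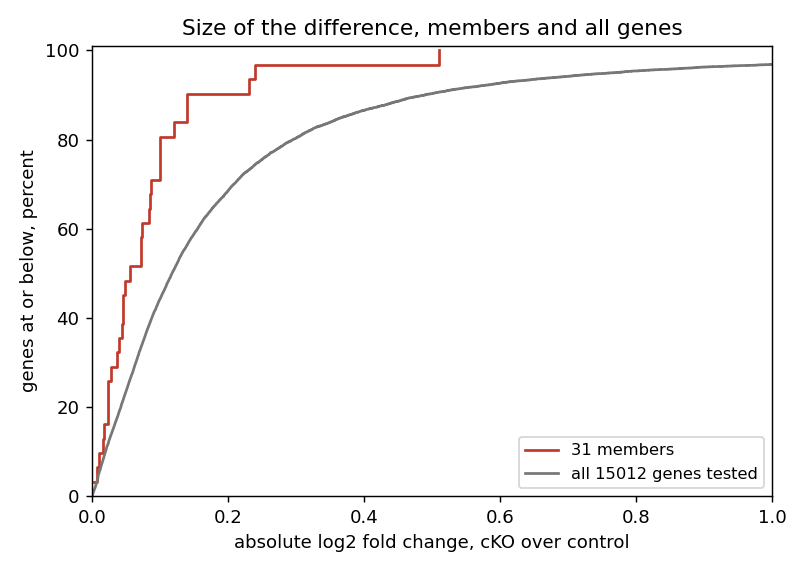
Cumulative percent of genes (vertical axis) by absolute log2 fold change between libraries labelled cKO and control libraries (horizontal axis), for the 31 genes and for all 15012 genes tested. Medians are 0.055 for the 31 genes and 0.12 for all genes; the horizontal axis ends at 1.

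Igf2bp2, Zc3h13 and Hnrnpc were called in all 14 alternative settings tried. The 250 bases before their RefSeq start sites (GRCm38.p6) are shown because they lie directly upstream of where transcription of these 3 genes begins. Zc3h13 had 2 listed start sites, of which the one at the annotated gene start was used. The counts do not measure promoter activity. Capitals mark matches, on either strand, to the letters of 5 textbook motifs. The letters searched were TGANTCA for AP-1 factors, TTCNNNGAA for STAT factors and CCGGAAG for ETS factors. CCAAT was searched for the box named after it, and TATAAA for the core promoter element.
Igf2bp2 (chr16:22163300-22163549, minus strand): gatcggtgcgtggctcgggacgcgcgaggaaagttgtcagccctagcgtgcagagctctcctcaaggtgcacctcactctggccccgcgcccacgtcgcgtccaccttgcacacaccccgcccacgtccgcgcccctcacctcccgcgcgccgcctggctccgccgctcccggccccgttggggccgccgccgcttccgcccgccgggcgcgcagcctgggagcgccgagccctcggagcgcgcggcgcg
Zc3h13 (chr14:75284123-75284372, plus strand): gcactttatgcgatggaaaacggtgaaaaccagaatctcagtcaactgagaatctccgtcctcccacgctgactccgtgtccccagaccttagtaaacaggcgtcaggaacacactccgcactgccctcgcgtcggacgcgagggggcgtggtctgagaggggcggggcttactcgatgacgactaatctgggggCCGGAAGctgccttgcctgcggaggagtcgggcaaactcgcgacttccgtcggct
Hnrnpc (chr14:52104022-52104271, minus strand): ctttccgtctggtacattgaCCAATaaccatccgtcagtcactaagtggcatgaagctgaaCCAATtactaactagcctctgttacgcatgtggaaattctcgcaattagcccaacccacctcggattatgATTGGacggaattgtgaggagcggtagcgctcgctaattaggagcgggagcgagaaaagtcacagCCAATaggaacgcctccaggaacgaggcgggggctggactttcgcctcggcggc
The Igf2bp2 window held none of the 5 motifs and had 40 CpG dinucleotides and 77.2% G and C. The Zc3h13 window held 1 ETS match and 23 CpG, and the Hnrnpc window 4 CCAAT matches and 17 CpG, against a median of 6 CpG over 32851 promoter windows of the same length. Among those windows 33.8% held a CCAAT match, 6.91% an ETS match, 6.75% an AP-1 match, 7.02% a STAT match and 12.4% a TATAAA match. A match is a description of letters and not of a factor bound there.

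The core of the m6A writer did not differ detectably. Mettl3, the catalytic methyltransferase gene, stood at 35.71 and 36.15 CPM in libraries labelled cKO, against 35.73 and 33.91 CPM in control libraries. The groups overlapped, and the log2 fold change was 0.046 ± 0.055 (SE; edgeR adjusted p = 0.563), with a 95% interval of the ratio from 0.956 to 1.11. Mettl14, whose protein supports RNA binding by METTL3, stood at 41.51 and 41.53 CPM in libraries labelled cKO, against 41.63 and 40.09 CPM in control libraries. Its groups overlapped too, with a log2 fold change of 0.024 ± 0.051 (adjusted p = 0.765) and an interval from 0.947 to 1.09. Annotated exons of Mettl3 overlap those of Tox4 on the opposite strand over 18.4% of their length, and the strand setting of the counting is not stated.

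Among the 6 genes that place and hold the writer core, 1 rose, 1 fell and 4 did not pass. Zc3h13, a zinc-finger protein that keeps the complex in the nucleus, stood at 82.85 and 85.11 CPM in libraries labelled cKO, against 99.42 and 98.87 CPM in control libraries. Both libraries labelled cKO lay below both control libraries, and the log2 fold change was -0.24 ± 0.037 (adjusted p = 1.87e-06). Wtap, the adaptor that brings the core to nuclear speckles, moved the other way, at 91.05 and 89.37 CPM in libraries labelled cKO, against 83.49 and 83.12 CPM in control libraries. The groups did not overlap and the log2 fold change was 0.12 ± 0.037 (adjusted p = 0.0153). This call was lost with DESeq2 (adjusted p = 0.155), without control replicate 2 (0.0653) and without cKO replicate 1 (0.114).

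The other 4 adaptors did not pass the test. Virma, the largest scaffold of the complex, stood at 93.60 and 92.68 CPM in libraries labelled cKO, against 99.08 and 98.87 CPM in control libraries, without overlap and with an adjusted p of 0.0588. Cbll1, the E3 ligase-like subunit also called HAKAI, averaged 35.12 ± 0.156 CPM in libraries labelled cKO and 37.61 ± 2.31 CPM in control libraries (SD, n = 2 each; edgeR adjusted p = 0.182). The RNA-binding recruiters Rbm15 and Rbm15b had log2 fold changes of 0.072 ± 0.071 and 0.055 ± 0.040 (adjusted p = 0.471 and 0.320), and groups overlapped for both. Summed over all 8 writer genes, libraries labelled cKO held 485.1 and 482.9 CPM, against 495.8 and 493.5 CPM in control libraries.

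Methyltransferases that act outside this complex gave no call. Mettl16, which methylates U6 snRNA and hairpins of the Mat2a transcript, averaged 26.09 ± 0.194 CPM in libraries labelled cKO and 28.74 ± 0.551 CPM in control libraries (SD, n = 2 each; edgeR log2 fold change -0.14 ± 0.061, adjusted p = 0.0735). The 18S rRNA methyltransferase gene Mettl5 averaged 10.58 ± 1.09 CPM in libraries labelled cKO and 9.029 ± 0.076 CPM in control libraries (SD, n = 2 each; edgeR log2 fold change 0.23 ± 0.10, adjusted p = 0.0791). Mettl5 passed with upper quartile scaling (adjusted p = 0.0451) and without cKO replicate 2 (0.0371), and at 240 to 321 counts per library it was among the least precisely measured of the 31. The 28S rRNA methyltransferase gene Zcchc4 differed least, with a log2 fold change of -0.0023 ± 0.082 (adjusted p = 0.988).

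Of 87 further genes in lists tied to this machinery or to other RNA marks, 13 rose and 18 fell, against 20 higher and 11 lower with upper quartile scaling, and the share called in each list is to be read against the 33.1% of all genes tested. Of 8 cofactor and cap-methylation genes 1 rose, 2 fell and 5 did not pass (37.5% called, near that share), with a median log2 fold change of 0.0014, against 0.0047 over all genes tested. Mat2a, whose enzyme makes the methyl donor S-adenosylmethionine, averaged 201.6 ± 0.294 CPM in libraries labelled cKO and 285.8 ± 3.17 CPM in control libraries (SD, n = 2 each). Its log2 fold change was -0.50 ± 0.027 (adjusted p = 8.19e-18), and it passed in all 14 alternative settings. Pcif1, which methylates the cap-adjacent adenosine, averaged 97.06 ± 4.85 CPM in libraries labelled cKO and 84.23 ± 0.682 CPM in control libraries (log2 fold change 0.20 ± 0.039, adjusted p = 6.21e-05). The nucleic acid demethylase gene Alkbh1 fell (-0.27 ± 0.078, adjusted p = 0.00653, lost with DESeq2 at 0.118). Trmt112, the partner protein of METTL5, did not pass (0.10 ± 0.050, adjusted p = 0.131), passed with upper quartile scaling (0.0470) and without control replicate 1 (0.0436), and turned to -0.022 after correction for GC content and length.

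Neither eraser passed the test. Fto, an oxygenase that demethylates m6A and the cap-adjacent m6Am, stood at 140.4 and 140.5 CPM in libraries labelled cKO, against 140.4 and 135.2 CPM in control libraries. Control replicate 1 was level with both libraries labelled cKO, and control replicate 2 lay below them. The log2 fold change was 0.028 ± 0.032 (adjusted p = 0.556), with an interval of the ratio from 0.974 to 1.07. After correction for GC content and length Fto passed at 0.085 (adjusted p = 0.0266). Alkbh5, the nuclear m6A demethylase gene, stood at 150.5 and 149.3 CPM in libraries labelled cKO, against 152.9 and 149.0 CPM in control libraries. Its groups overlapped, with a log2 fold change of -0.0099 ± 0.031 (adjusted p = 0.848) whose sign changed to 0.017 with upper quartile scaling, and an interval from 0.950 to 1.04.

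Of the 5 YTH domain readers, whose pocket binds the methylated base directly, Ythdf1 fell and 4 did not pass. Ythdf1, known for raising translation of bound mRNA, stood at 72.03 and 69.80 CPM in libraries labelled cKO, against 77.39 and 75.07 CPM in control libraries. The groups did not overlap and the log2 fold change was -0.10 ± 0.040 (adjusted p = 0.0455), the weakest call of the 8. It was lost with upper quartile scaling (0.146), without a low-count filter (0.0833), with DESeq2 (0.275), and without control replicate 1 (0.235), cKO replicate 1 (0.0518) or cKO replicate 2 (0.248). Ythdf2, which sends methylated mRNA to decay, leaned the other way at 71.39 and 74.88 CPM in libraries labelled cKO, against 70.77 and 67.23 CPM in control libraries (log2 fold change 0.084 ± 0.042, adjusted p = 0.125). Ythdf2 passed with upper quartile scaling (0.0365).

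The remaining YTH genes gave no call. Ythdf3, a cytoplasmic reader that acts with both paralogs, stood at 136.3 and 132.8 CPM in libraries labelled cKO, against 140.5 and 135.6 CPM in control libraries, with overlapping groups (-0.036 ± 0.033, adjusted p = 0.438). The nuclear splicing reader gene Ythdc1 gave -0.040 ± 0.037 (adjusted p = 0.433). Ythdc2, a helicase reader best known from the germ line, gave -0.017 ± 0.049 (adjusted p = 0.834), which turned to 0.010 with upper quartile scaling.

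Of 13 deadenylase and decay genes linked to YTHDF2, 1 rose, 2 fell and 10 did not pass (23.1% called, against 33.1% of all genes tested), with a median log2 fold change of 0.044. The deadenylase gene Cnot6 (-0.11 ± 0.028, adjusted p = 0.00263) and the scaffold gene Cnot1 (-0.079 ± 0.027, adjusted p = 0.0210) fell, and the subunit gene Cnot3 rose (0.12 ± 0.043, adjusted p = 0.0321). Each of these 3 calls was lost without cKO replicate 2, at adjusted p = 0.0870, 0.117 and 0.0893. Cnot1 moved to -0.013 after GC content and length correction (0.733), and was also lost with upper quartile scaling (0.140), with DESeq2 (0.131) and without control replicate 1 (0.146) or cKO replicate 1 (0.0634). Cnot3 was also lost with DESeq2 (0.242), without a low-count filter (0.0546) and without control replicate 1 (0.0700), control replicate 2 (0.137) or cKO replicate 1 (0.121). Cnot4, the ubiquitin ligase subunit gene, had 0.11 ± 0.050 (adjusted p = 0.0882, and 0.0296 with upper quartile scaling). Cnot4 also passed after GC content and length correction (0.0456, and 0.0495 with the replicate block beside it). None of the splicing and export partner genes of YTHDC1, Srsf3, Srsf10 and Nxf1, passed (edgeR adjusted p = 0.181, 0.675 and 0.357), and 0 of the 3 had an unadjusted p under 0.05 or passed with DESeq2. Srsf3 passed as higher without control replicate 1 (0.0245), with upper quartile scaling (0.0303) and after GC content and length correction (0.024).

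Of the 3 IGF2BP genes Igf2bp2 fell and the others did not pass. These proteins stabilize and localize mRNA. Igf2bp2 stood at 46.85 and 47.84 CPM in libraries labelled cKO, against 66.30 and 68.33 CPM in control libraries. The groups lay far apart beside a replicate spread of 0.700 CPM (SD) in libraries labelled cKO and 1.43 CPM in control libraries. The log2 fold change was -0.51 ± 0.044 (adjusted p = 5.43e-12), with a ratio of 0.703 and a 95% interval from 0.660 to 0.748. It ranged from -0.53 to -0.48 over the 14 alternatives, and 90.6% of all genes tested changed less.

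Igf2bp3 was the most abundant of the family at 117.5 and 117.1 CPM in libraries labelled cKO, against 108.7 and 114.2 CPM in control libraries (log2 fold change 0.073 ± 0.035, adjusted p = 0.106). Igf2bp3 passed as higher with upper quartile scaling (0.0226), after GC content and length correction (0.0134) and without control replicate 2 (0.0421). Exons of Igf2bp3 overlap those of Malsu1 on the opposite strand over 18.7% of their length. Igf2bp1 was scarce, at 10.04 and 11.31 CPM in libraries labelled cKO, against 11.96 and 10.11 CPM in control libraries, with overlapping groups (-0.048 ± 0.10, adjusted p = 0.764). Per kilobase of exon, Igf2bp2 made up 29.1% and 29.4% of the transcripts of the family in libraries labelled cKO, against 38.1% and 38.0% in control libraries.

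Markers of several cell types moved in the same libraries as Igf2bp2. The summed level of 8 mural cell and fibroblast markers was 60.50 and 64.03 CPM in libraries labelled cKO, against 187.9 and 183.1 CPM in control libraries, with 7 of 8 lower and 1 higher. Of 4 astrocyte markers 3 fell, with a sum of 907.2 and 908.5 CPM in libraries labelled cKO, against 1610 and 1633 CPM in control libraries. Microglial markers were scarce, at 2.617 and 2.038 CPM in sum in libraries labelled cKO, against 6.131 and 7.450 CPM in control libraries, with 5 of 6 tested lower. All 6 choroid plexus markers rose, with a sum of 1320 and 1336 CPM in libraries labelled cKO, against 185.9 and 194.1 CPM in control libraries. The part of these cells in the change of Igf2bp2 or of any other gene here was not tested.

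**Figure D3:**
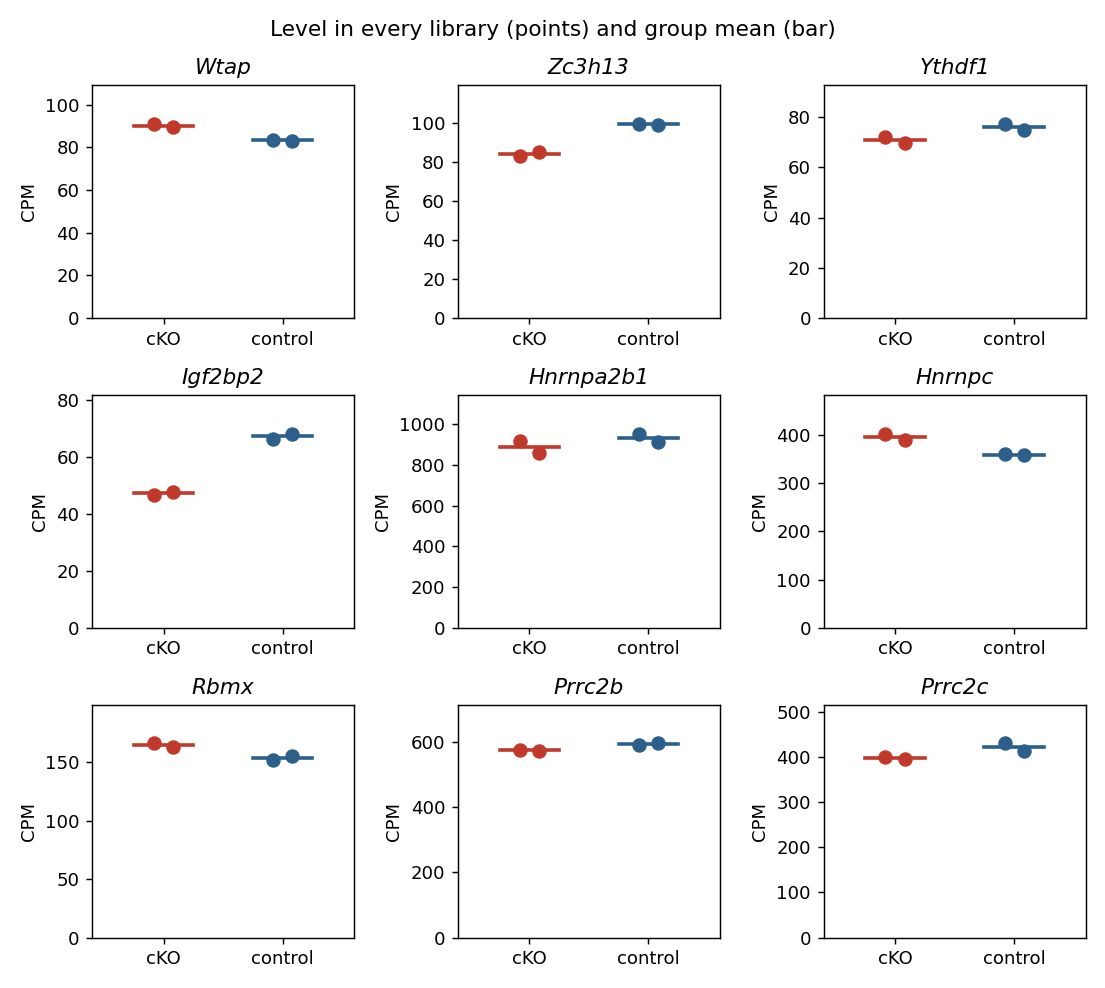
Level in CPM of the 8 called genes and of Prrc2b in each library, as points, with the mean of each group as a bar; libraries labelled cKO are on the left and control libraries on the right, and each axis starts at 0. Igf2bp2 at 46.85 and 47.84 against 66.30 and 68.33 CPM shows the widest gap relative to its level, and for Hnrnpa2b1 the groups overlap.

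The 3 nuclear hnRNP readers, which bind RNA that m6A has unfolded or marked, were all called, in both directions. Of all genes tested 33.1% were called. These readers were among the most highly counted of the 31 genes, and only Hnrnpc was also called with DESeq2. Hnrnpc, whose protein binds uridine tracts exposed by m6A, stood at 401.9 and 388.7 CPM in libraries labelled cKO, against 359.3 and 357.2 CPM in control libraries. The groups did not overlap and the log2 fold change was 0.14 ± 0.025 (adjusted p = 2.09e-05). Rbmx, also called HNRNPG, stood at 166.0 and 163.2 CPM in libraries labelled cKO, against 151.5 and 155.2 CPM in control libraries, again without overlap. Its log2 fold change was 0.10 ± 0.031 (adjusted p = 0.00947), lost with DESeq2 (0.0952), without control replicate 1 (0.0872) and without cKO replicate 1 (0.0906). Rbmx and Hnrnpc both have processed copies elsewhere in the genome, among which reads could have been split. Rbmx lies on the X chromosome, where 31.2% of 529 genes tested were called, and the groups differ in Y-linked and Xist RNA.

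Hnrnpa2b1, a reader linked to microRNA processing, had the highest count of the 31 and the widest absolute replicate spread. It stood at 919.2 and 859.4 CPM in libraries labelled cKO, against 955.1 and 915.2 CPM in control libraries. The groups overlapped although the test called it lower (log2 fold change -0.072 ± 0.025, adjusted p = 0.0212). The call was lost with upper quartile scaling (0.157), without a low-count filter (0.125), with DESeq2 (0.459), without control replicate 1 (0.168) and without cKO replicate 2 (0.603).

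FMRP and its paralogs, translational regulators that bind many m6A-bearing neuronal transcripts, gave no call. The X-linked gene Fmr1 averaged 131.3 ± 3.07 CPM in libraries labelled cKO and 129.9 ± 2.69 CPM in control libraries (SD, n = 2 each; edgeR adjusted p = 0.763). Fxr1 had a log2 fold change of -0.045 ± 0.034 (adjusted p = 0.333) and Fxr2 of -0.023 ± 0.034 (adjusted p = 0.655), with intervals of the ratio from 0.925 to 1.02 and from 0.939 to 1.03. Of 8 genes of FMRP partners, 2 fell, 0 rose and 6 did not pass (25.0% called). Those that fell were the stress-granule gene Caprin1 (-0.091 ± 0.024, adjusted p = 0.00263) and the actin-regulatory gene Cyfip1 (-0.10 ± 0.032, adjusted p = 0.0115). The Cyfip1 call was lost without cKO replicate 2 (0.296), with DESeq2 (0.108), with upper quartile scaling (0.0621), without a low-count filter (0.0555) and after GC content and length correction (0.185). Cyfip2 (0.061 ± 0.033) and Nufip2 (-0.060 ± 0.035) did not pass (adjusted p = 0.154 and 0.199), though Cyfip2 did with upper quartile scaling (0.0331) and after GC content and length correction (0.0276).

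Elavl1, the ubiquitous stabilizing protein HuR, stood at 114.2 and 116.0 CPM in libraries labelled cKO, against 113.6 and 112.8 CPM in control libraries, without overlap (log2 fold change 0.024 ± 0.034, adjusted p = 0.634). Of its 3 neuronal paralogs 2 rose. Elavl2 averaged 51.29 ± 0.231 CPM in libraries labelled cKO and 43.38 ± 0.843 CPM in control libraries (0.24 ± 0.048, adjusted p = 9.66e-05), and Elavl4 rose by 0.20 ± 0.046 (adjusted p = 0.000634). Elavl3 did not pass (-0.065 ± 0.028, adjusted p = 0.0757), though it did as lower with the replicate block (0.0422). Neuronal markers rose in the same libraries for 4 of 6 genes, with a sum of 2393 and 2378 CPM in libraries labelled cKO, against 2066 and 2074 CPM in control libraries, and their part in the rise of Elavl2 and Elavl4 was not tested.

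In the Prrc2 family, large proline-rich proteins of the cytoplasm that also bind initiation factors, the targeted gene differed little. Prrc2b stood at 574.4 and 572.5 CPM in libraries labelled cKO, against 588.3 and 594.2 CPM in control libraries. The 2 groups did not overlap, but the difference of 3.01% did not pass (log2 fold change -0.044 ± 0.023, adjusted p = 0.134, and between 0.0769 and 0.885 in 14 alternative settings), with a 95% ratio interval of 0.940 to 1.00. The gene total counts reads from every exon, and the labels do not say which exons are floxed, so it does not check the genotype. Prrc2a stood at 664.9 and 660.8 CPM in libraries labelled cKO, against 658.3 and 674.4 CPM in control libraries, with overlapping groups (-0.0076 ± 0.022, adjusted p = 0.835, turning to 0.019 with upper quartile scaling).

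Prrc2c was the one called paralog, at 398.9 and 396.0 CPM in libraries labelled cKO, against 429.6 and 413.6 CPM in control libraries. Both libraries labelled cKO lay below both control libraries, with a log2 fold change of -0.085 ± 0.025 (adjusted p = 0.00729). The value moved to -0.019 after GC content and length correction (0.561). Other losses of the call came with DESeq2 (0.0571), upper quartile scaling (0.0709) and omission of control replicate 1 (0.123) or cKO replicate 2 (0.0572). Per kilobase of exon, Prrc2a, Prrc2b and Prrc2c made up 53.5%, 31.3% and 15.2% of the transcripts of the family in cKO replicate 1, and 52.2%, 31.6% and 16.2% in control replicate 1. The other replicate of each group lay within 1 percentage point of these shares.

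Of 2 transcripts reported elsewhere as bound by these paralogs in mouse, Olig2 fell and Sox2 did not pass. Olig2, the oligodendrocyte lineage factor gene linked to PRRC2A, averaged 353.7 ± 4.66 CPM in libraries labelled cKO and 389.9 ± 11.8 CPM in control libraries (SD, n = 2 each; edgeR log2 fold change -0.14 ± 0.026, adjusted p = 3.55e-05). Other oligodendrocyte lineage markers went the other way in the same libraries, with Olig1, Sox10 and Cspg4 higher. Sox2, linked to PRRC2B, had a log2 fold change of -0.0071 ± 0.026 (adjusted p = 0.868), which turned to 0.020 with upper quartile scaling and to 0.036 without control replicate 2.

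Initiation factor genes of the kind whose proteins PRRC2 proteins bind were called in both directions. Of 17 tested, 7 rose, 7 fell and 3 did not pass (82.4% called, against 33.1% of all genes tested). Upper quartile scaling gave 8 higher and 3 lower. Their median log2 fold change was -0.022. The 14 calls became 8 with DESeq2, 8 without cKO replicate 2 and 9 without a low-count filter. The scaffold gene Eif4g1 averaged 509.8 ± 4.08 CPM in libraries labelled cKO and 596.1 ± 1.76 CPM in control libraries (-0.23 ± 0.023, adjusted p = 1.97e-10). The eIF3 subunit genes Eif3h (0.21 ± 0.027), Eif3k (0.24 ± 0.034) and Eif3e (0.18 ± 0.029) rose (adjusted p = 5.08e-08, 4.94e-07 and 4.03e-06). Of the 10692 genes at least as abundant as the scarcest of the 31, 38.2% were called. The 17 initiation factor genes lay far above that limit. Their group means ran from 100.7 CPM for Eif3g in libraries labelled cKO to 1271 CPM for Eif4g2 in control libraries. The share called among genes of like abundance was not computed.

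Of 8 m5C genes 1 rose and 1 fell (25.0% called, against 33.1% of all genes tested): the reader gene Ybx1 averaged 1093 ± 41.8 CPM in libraries labelled cKO and 986.6 ± 80.3 CPM in control libraries (0.15 ± 0.030, adjusted p = 0.000117, and 0.307 with DESeq2), and the methyltransferase gene Nsun2 fell (-0.11 ± 0.035, adjusted p = 0.00986, lost with DESeq2 at 0.110, without control replicate 2 at 0.0514 and without cKO replicate 2 at 0.157). Trdmt1 (0.15 ± 0.092) and Nsun6 (0.11 ± 0.089) did not pass. Of 12 pseudouridine synthase genes (16.7% called) Rpusd2 rose (0.23 ± 0.076, adjusted p = 0.0197) and Trub2 fell (-0.14 ± 0.054, adjusted p = 0.0447), while Pus7 (-0.10 ± 0.049, passing without cKO replicate 1 at 0.0456) and Dkc1 (-0.078 ± 0.044) did not pass. The Rpusd2 and Trub2 calls were lost with DESeq2 (0.206 and 0.294), without control replicate 1 (0.0915 and 0.0520) and without cKO replicate 2 (0.0634 and 0.265), that of Rpusd2 also without cKO replicate 1 (0.0939) and that of Trub2 without control replicate 2 (0.212), with upper quartile scaling (0.108), without a low-count filter (0.0808) and after GC content and length correction (0.0839).

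Of 7 genes for m1A, m7G and ac4C (14.3% called), Trmt61a, the catalytic subunit of the tRNA m1A methyltransferase, averaged 15.66 ± 0.591 CPM in libraries labelled cKO and 20.03 ± 1.78 CPM in control libraries (-0.36 ± 0.078, adjusted p = 0.000358). Its partner gene Trmt6 gave 0.0035 ± 0.050 (adjusted p = 0.967), and Wdr4 (-0.13 ± 0.059), Rnmt (0.089 ± 0.041) and Nat10 (-0.094 ± 0.047) did not pass. The log2 fold change of Wdr4 was -0.23 without control replicate 1, and that of Rnmt was 0.16 without cKO replicate 2. Rnmt passed with upper quartile scaling (0.0236). It also passed after GC content and length correction (0.0255, and 0.0241 with the replicate block beside it). Of 6 A-to-I editing genes (16.7% called) Adar fell (-0.12 ± 0.034, adjusted p = 0.00571), a call lost without cKO replicate 1 (0.0847) and with DESeq2 (0.0804). Adarb2 (-0.23 ± 0.10), Adat2 (-0.16 ± 0.11) and Adat1 (0.086 ± 0.090) did not pass, though Adarb2 did without control replicate 1 (0.0225) or cKO replicate 1 (0.0204).

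Levels between genes can be set side by side only per length, and are given here as transcripts-per-million (TPM) over annotated exons, averaged over the 4 libraries. Hnrnpa2b1 led at 536.5 TPM, followed by Hnrnpc at 337.2 and Prrc2a at 337.1 TPM. These near-equal means hide an order that differed between the groups. Hnrnpc at 355.7 and 342.7 TPM lay above Prrc2a at 333.3 and 330.0 TPM in libraries labelled cKO. In control libraries Hnrnpc at 327.3 and 323.3 TPM lay below Prrc2a at 339.6 and 345.6 TPM. Prrc2b came next at 200.2 TPM and Rbmx at 142.1 TPM. These 5 were also the top 5 when the longest coding transcript was taken as the length, where Hnrnpa2b1 stood at 1415 TPM. By that length Hnrnpc at 354.2 TPM exceeded Prrc2a at 258.4 TPM. Igf2bp1 was lowest at 4.341 TPM, below Zcchc4 at 5.345 TPM and Mettl16 at 7.685 TPM. By the longest coding transcript Mettl16 at 5.839 TPM lay below Zcchc4 at 7.017 TPM.

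Within the writer complex the catalytic core was less abundant than most of its adaptors per length of annotated exons. Mettl3 stood at 26.97 TPM and Mettl14 at 21.49 TPM, against 56.47 TPM for Zc3h13, 53.72 TPM for Wtap and 52.11 TPM for Virma. Values of Zc3h13, Wtap and Virma overlapped between libraries. In libraries labelled cKO, Zc3h13 at 50.44 and 51.62 TPM lay below Wtap at 55.74 and 54.51 TPM. The order was reversed in control libraries, with Zc3h13 at 62.29 and 61.54 TPM and Wtap at 52.60 and 52.03 TPM. There Zc3h13 also lay above Virma at 54.64 and 54.17 TPM. With the longest coding transcript as length Mettl3 stood at 46.78 TPM, below Wtap at 72.87 TPM but above every other adaptor. The next were Zc3h13 at 39.92 TPM and Virma at 39.17 TPM. The place of Mettl3 among the adaptors thus depends on the length chosen. By that length Mettl14 at 15.33 TPM still lay below every adaptor except Rbm15 at 12.99 TPM. Of the cytoplasmic YTH readers Ythdf3 stood at 98.40 TPM, Ythdf1 at 85.93 TPM and Ythdf2 at 60.15 TPM. Alkbh5 at 97.27 TPM exceeded Fto at 41.33 TPM, but by the longest coding transcript Fto at 79.17 TPM exceeded Alkbh5 at 70.32 TPM.

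**Figure D4:**
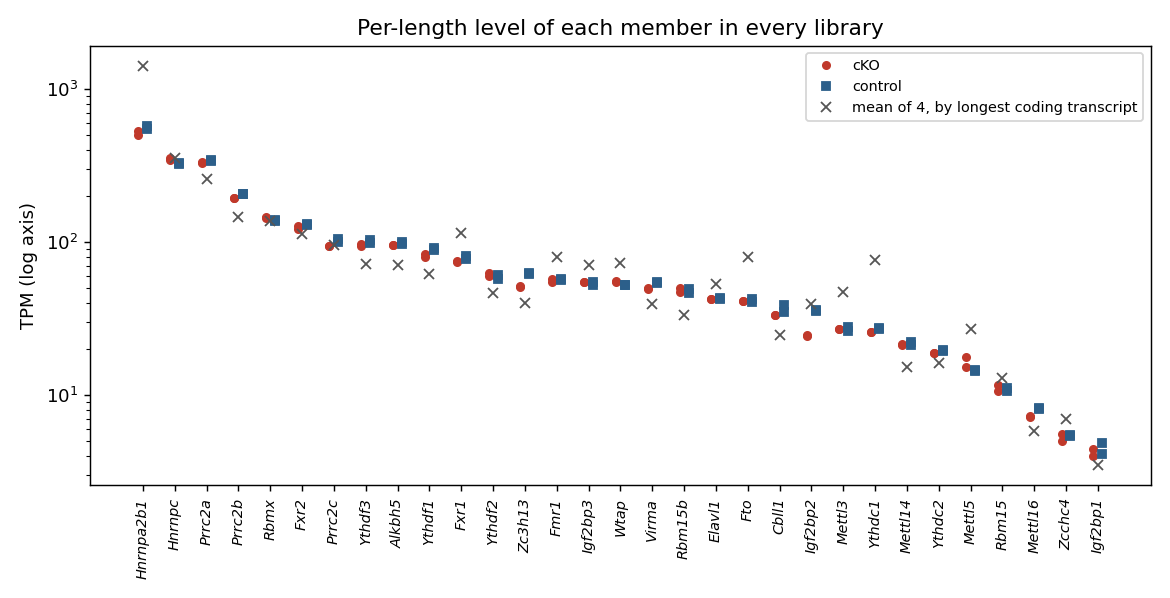
Level in TPM of each of the 31 genes on a log axis, in order of level, with circles for libraries labelled cKO, squares for control libraries and crosses for the mean of the 4 libraries when the longest coding transcript is the length. Levels run from 536.5 for Hnrnpa2b1 to 4.341 for Igf2bp1, and for 6 genes the choice of length moves the level by over 1.5 times.

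**Figure D5:**
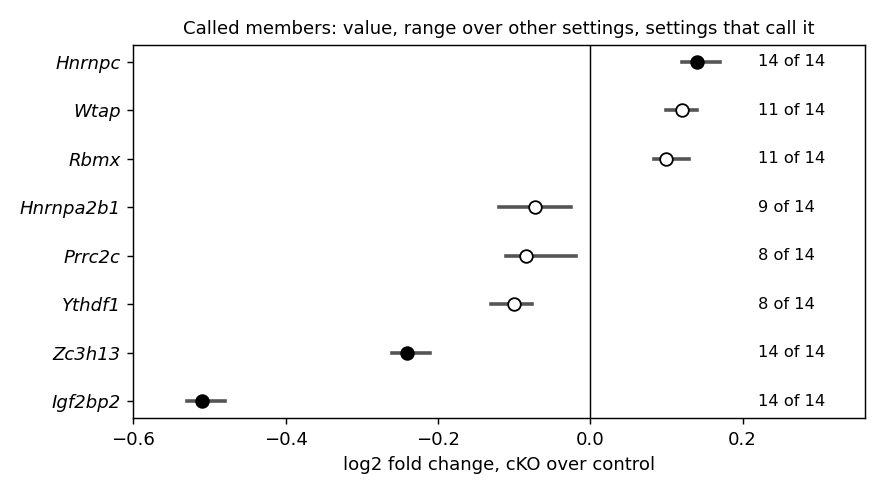
Log2 fold change of the 8 called genes, libraries labelled cKO over control libraries, as a point with a line for the range over 14 alternative settings, and the number of those settings in which the gene was called. Filled points mark Hnrnpc, Zc3h13 and Igf2bp2, called in all 14; no line crosses 0.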

How the data were processed

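Poly(A) RNA libraries, 2 labelled cKO and 2 control, were grouped by their titles. Per the submitters' processing notes the authors worked on mm10 with HTSeq 0.12.4, HISAT2 2.2.1 and DESeq2 1.26.0; neither the annotation nor the strand setting is stated there. The deposited files hold unnormalized read counts by gene symbol, and summary lines of unassigned reads (25.2% to 26.1% of entries) were left out. At these depths a floor of 3 counts is 0.106 to 0.116 CPM, for counting error only.

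Genes kept by filterByExpr were tested with edgeR 4.0.16 in R 4.3.3 (TMM scaling, quasi-likelihood F test, legacy off) with Benjamini-Hochberg adjustment over 15012 genes at 0.05. Standard errors were derived from F and the log2 fold change, and intervals use the moderated degrees of freedom. The steps were tested on simulated data. No permutation test was run, since 2 libraries against 2 are too few. Alternatives used DESeq2 1.42.0, limma 3.58.1 (voom), other scalings and filters, GC content and length offsets, a replicate block and omission of each library. Lengths, GC content and overlaps came from GENCODE M21 (GRCm38, the assembly of mm10), which held 98.39% of symbols, and promoters from RefSeq. All 31 genes are named. Of each further list up to 4 genes with the smallest p are named, and a few others were chosen after their values were seen. The genes and lists were chosen with earlier results of these data known.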

Additional observations from a re-analysis of the deposited data

How the results depend on the processing

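Over 14 alternatives none of the 8 called genes changed sign, and Igf2bp2, Zc3h13 and Hnrnpc passed in each. DESeq2 called 2697 genes over the whole table, against 4974 with edgeR, with 3 called among the 31 against 8, and 16 among the 87 further genes against 31. Leaving out 1 library gave 3991 to 4285 genes called over the whole table, 4 to 8 of the 31 (4 without control replicate 1 and 5 without cKO replicate 1) and 19 to 29 of the 87 (19 without cKO replicate 2). Same-numbered libraries did not deviate together (correlation 0.0155 over 15012 genes), so the numbers were not taken as pairs; the replicate block gave 5324 genes called in all, 9 of the 31, with Virma added (adjusted p = 0.0403), and 34 of the 87. Virma also passed in the legacy fit (0.0452).

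Signs that changed were all those of genes not called. With upper quartile scaling log2 fold changes turned to 0.0077 for Srsf10, 0.020 for Sox2, 0.024 for Zcchc4, 0.017 for Alkbh5, 0.010 for Ythdc2, 0.0042 for Fxr2 and 0.019 for Prrc2a. The GC content and length offset gave -0.022 for Trmt112, 0.041 for Zcchc4, 0.0068 for Alkbh5 and 0.012 for Ythdc2, and with the replicate block beside it -0.023, 0.039, 0.0065 and 0.012. Leaving out 1 library gave -0.041 to 0.0013 for Srsf10, -0.050 to 0.036 for Sox2, -0.0051 to 0.050 for Mettl14, -0.084 to 0.069 for Zcchc4, -0.00076 to 0.054 for Fto, -0.030 to 0.0080 for Alkbh5, -0.17 to 0.076 for Igf2bp1, -0.0093 to 0.039 for Fmr1 and -0.025 to 0.0086 for Prrc2a. The cause of these changes was not tested. Depth limits Mettl5 and Igf2bp1 most, at 240 to 321 counts per library.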
